A study of Mus musculus with 20 samples.

Results

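The TCF/LEF factors are the DNA-binding proteins through which beta-catenin acts on genes, and mammals have 4 of them, Tcf7, Tcf7l1, Tcf7l2 and Lef1. They were followed here through every probe set of the deposited array table whose only gene symbol was one of those names. This gave 8 of 45037 probe sets and 3 of the 18193 genes that could be tested. Lef1 had 2 probe sets, Tcf7l1 had 2 and Tcf7l2 had 4, while Tcf7 had none with its symbol alone and is not analysed here.

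The 20 samples were snap-frozen livers and liver tumours of male C57BL/6 mice, in 4 groups of 5, and every group, controls included, carried a conditional Apc knockout (APCko). Per the protocols in the labels, mice received a single intraperitoneal dose of 0.75 mg tamoxifen at 6 weeks of age and, from 1 week later, standard chow or a diet with 0.05% phenobarbital for 9 months. The series' design text names the carcinogen DEN in place of tamoxifen, and which holds was not settled. The groups are untreated non-tumour liver (H2O_NT, although the protocol names chow and no treated water), phenobarbital-fed non-tumour liver (PB_NT), carcinomas from untreated mice (APCko_Carcinoma) and adenomas from phenobarbital-fed mice (APCko_Adenoma). Diet and tumour stage therefore cannot be told apart between the tumour groups. There was no group without the conditional knockout, and how far Apc was lost in the non-tumour livers is not shown here. The promoter that drives the recombinase was not given in the sources. Nothing in the labels says that each sample is a separate mouse, so a p-value covers the spread of these samples, which may be technical.

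TCF/LEF factors share an HMG box that binds DNA and bends it. Without beta-catenin they recruit co-repressors of the Tle (Groucho) family; when Apc is lost, beta-catenin is no longer marked for degradation, enters the nucleus and binds the factors' amino-terminal end, and target genes are switched on. In liver this pathway is known for the pericentral programme of hepatocytes, with Tcf7l2 as the best studied factor there. Lef1 and Tcf7 are best known from T cells, and Tcf7l1 is known mainly as a repressor in stem cells.

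The stretches of DNA before the genes' start sites are shown because TCF/LEF factors bind a short core, searched here as CTTTGA and CTTTGT on both strands, and because Lef1 is itself known as a Wnt target gene in several tissues. Each window holds the 250 bases before a start listed by RefSeq on GRCm38.p6, written 5′ to 3′ on the gene's strand, with matches in capitals; a match on the other strand reads TCAAAG or ACAAAG. RefSeq lists 4 starts for Lef1, 1 for Tcf7l1 and 2 for Tcf7l2. Below are the first Lef1 start (chr3:131110047-131110296, plus strand), the Lef1 start 45997 bases further on, inside the gene (chr3:131156044-131156293, plus strand), the Tcf7l1 start (chr6:72789046-72789295, minus strand) and the Tcf7l2 start 153511 bases after its first (chr19:55895071-55895320, plus strand).
Lef1, first start: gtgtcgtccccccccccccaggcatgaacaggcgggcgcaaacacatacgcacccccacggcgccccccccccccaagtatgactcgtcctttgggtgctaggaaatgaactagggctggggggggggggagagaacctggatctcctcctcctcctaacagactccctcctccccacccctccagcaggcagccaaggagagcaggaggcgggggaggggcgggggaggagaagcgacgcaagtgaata
Lef1, internal start: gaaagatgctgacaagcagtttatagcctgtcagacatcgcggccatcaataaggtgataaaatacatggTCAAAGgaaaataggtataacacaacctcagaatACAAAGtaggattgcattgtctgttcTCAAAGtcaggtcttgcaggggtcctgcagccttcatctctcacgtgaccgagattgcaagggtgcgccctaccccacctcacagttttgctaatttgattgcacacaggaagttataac
Tcf7l1: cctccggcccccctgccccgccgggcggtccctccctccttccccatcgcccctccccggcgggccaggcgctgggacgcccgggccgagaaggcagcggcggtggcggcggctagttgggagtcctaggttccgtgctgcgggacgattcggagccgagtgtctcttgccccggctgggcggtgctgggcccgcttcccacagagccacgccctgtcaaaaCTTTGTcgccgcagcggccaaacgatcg
Tcf7l2, internal start: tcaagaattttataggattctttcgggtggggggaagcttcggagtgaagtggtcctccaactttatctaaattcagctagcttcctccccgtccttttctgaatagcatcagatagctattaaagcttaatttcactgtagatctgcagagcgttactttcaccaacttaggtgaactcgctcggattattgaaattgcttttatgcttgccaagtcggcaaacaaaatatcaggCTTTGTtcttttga

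The internal Lef1 window held 3 matches, at -180 to -175, -146 to -141 and -120 to -115 from the start, all on the other strand. The other 3 Lef1 windows held 0. The Tcf7l1 window held 1 match at -28 to -23, and of the Tcf7l2 windows the internal one held 1 at -14 to -9 and the first held 0. Either core was found in 27.6% of all 32851 windows of this length (CTTTGA in 13.8%, CTTTGT in 16.5%), and 0.776% held 3 or more matches. A match is a run of letters and no evidence of binding, and the arrays do not tell from which start a transcript came.

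Values are log2 expression on the deposited RMA scale, on which a difference of 1 is a doubling, and levels are compared only within a probe set. Array medians lay between 5.52 and 5.63. Differences were tested with limma over all genes at an adjusted p of 0.05, and SE is the standard error of a log2 difference. The 10 measured hepatocyte markers averaged 13.64 to 13.87 on untreated arrays, 13.51 to 13.61 on phenobarbital arrays and 11.90 to 12.87 in adenomas, but 6.19 to 9.82 in carcinomas, where all 10 fell, so the carcinoma arrays read low for the markers of the tissue's main cell. In adenomas Cps1 and Cyp2f2 fell, and the other 8 did not pass the test. Untreated arrays 3 and 4 read low for pericentral genes (means of 10.21 and 10.46 over 13 genes, against 10.92 to 11.12 on the other 3), and results were also computed without them.

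Lef1 was 20.6-fold higher in carcinomas than in untreated liver and did not pass the test in adenomas or under phenobarbital. On its brighter probe set, 1454734_at, untreated arrays 1 to 5 read 5.99, 5.78, 5.81, 5.85 and 5.60 (mean 5.81 ± 0.14, SD, n = 5). Carcinoma arrays 1 to 5 read 10.13, 10.31, 10.27, 10.09 and 10.07 (10.17 ± 0.11). All 5 carcinomas lay far above every untreated array and within a narrow band of each other. Of all probe sets of an array, 1454734_at lay at the 50.7 to 57.1 percentile in untreated liver and 92.8 to 94.0 in carcinomas. The liver level is not shown to stand above background, so the size of the rise cannot be read exactly. The difference was 4.37 (SE 0.16, adjusted p = 8.9e-15), the 219th largest rise of 18193 genes. In that comparison 31.4% of all genes rose and 37.6% fell, so passing the test alone does not set Lef1 apart. Without untreated arrays 3 and 4 the difference was 4.38 (adjusted p = 3.3e-12).

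The other Lef1 probe set, 1421299_a_at, gave the same direction at a lower reading. Untreated arrays read 3.16, 3.52, 3.35, 3.94 and 3.58 (3.51 ± 0.29), and carcinomas 6.21, 6.79, 6.83, 6.11 and 6.70 (6.53 ± 0.34). The groups did not overlap, and the difference was 3.02 (SE 0.16, adjusted p = 1.6e-12 among 34945 probe sets, of which 30% rose in carcinomas). Both probe sets therefore rose. In untreated liver 1421299_a_at lay at the 0.751 to 15.4 percentile of all probe sets of its array, where it is not shown to stand above background, so the size of its rise, and any gap to that of 1454734_at, cannot be read exactly.

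In adenomas Lef1 did not pass the test, and its values spread on both sides of the liver values. On 1454734_at phenobarbital liver lay at the 44.9 to 55.6 percentile of all probe sets and adenomas at 43.3 to 58.5. Neither level is shown to stand above background, so a small change could be missed. Phenobarbital liver read 5.93, 5.31, 5.69, 5.80 and 5.42 on 1454734_at (5.63 ± 0.26), and adenomas read 5.96, 5.12, 5.99, 5.82 and 6.12 (5.80 ± 0.39). The groups overlapped, with adenoma 2 below every phenobarbital array and the highest 3 adenomas above them; adenoma 5 also lay above every untreated array. The difference was 0.17 (SE 0.16, adjusted p = 0.46), with a 95% interval from -0.15 to 0.50. Without adenoma 2 it was 0.34 and passed the test (adjusted p = 0.044), so that array decides the call. On 1421299_a_at phenobarbital liver read 3.52, 3.75, 3.35, 3.75 and 3.50 and adenomas 3.64, 3.88, 3.63, 3.49 and 3.93, again overlapping (0.14, SE 0.16, adjusted p = 0.59). From the lowest to the highest mean, Lef1 on 1454734_at ran phenobarbital liver, adenoma, untreated liver and carcinoma, and the ranges of the first 3 overlapped.

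**Figure D1:**
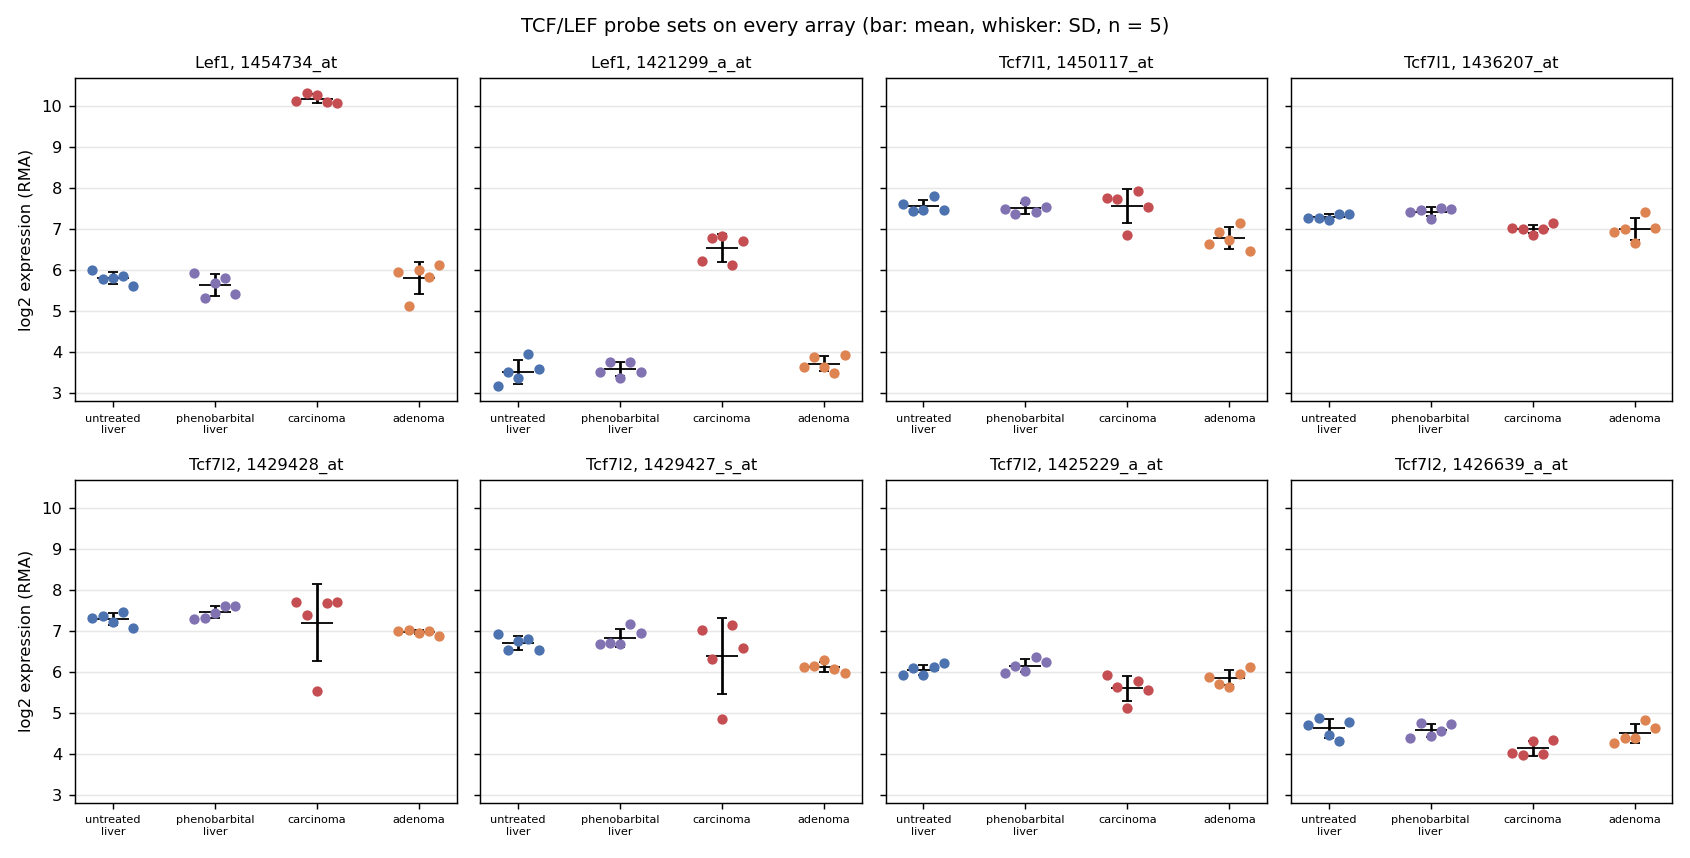
Each panel plots 1 probe set of Lef1, Tcf7l1 or Tcf7l2 on all 20 arrays, with log2 expression on the vertical axis, points for arrays, a bar for the mean and a whisker for the SD (n = 5). The 5 carcinomas stand above all other arrays in both Lef1 panels, and carcinoma 3 lies low in 2 Tcf7l2 panels, at 5.52 and 4.84.

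Tcf7l1, best known as a repressing member of the family, fell in adenomas on both of its probe sets. On 1450117_at phenobarbital liver read 7.50, 7.36, 7.68, 7.42 and 7.54 (7.50 ± 0.12), and adenomas read 6.63, 6.92, 6.74, 7.13 and 6.47 (6.78 ± 0.26). Every adenoma lay below every phenobarbital array. The difference was -0.72 (SE 0.16, adjusted p = 0.0028), a 1.65-fold fall, in a comparison in which 11.2% of all genes fell and 13.4% rose. On 1436207_at phenobarbital liver read 7.41, 7.47, 7.24, 7.52 and 7.48 and adenomas 6.93, 7.01, 6.66, 7.42 and 7.01. Adenoma 4, at 7.42, lay among the liver values and the other 4 below them, and the difference was -0.42 (SE 0.11, adjusted p = 0.0075, with 9.9% of probe sets falling).

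In carcinomas the Tcf7l1 probe sets disagreed. On 1450117_at untreated arrays read 7.62, 7.44, 7.47, 7.80 and 7.45 (7.56 ± 0.15) and carcinomas 7.75, 7.72, 6.85, 7.93 and 7.54 (7.56 ± 0.42). The groups overlapped, carcinoma 3 was the lowest, and the gene's difference was -0.00065 (SE 0.16, adjusted p = 1), with a 95% interval from -0.34 to 0.34. On 1436207_at untreated arrays read 7.28, 7.27, 7.23, 7.37 and 7.36 and carcinomas 7.03, 7.00, 6.85, 6.99 and 7.13. Here every carcinoma lay below every untreated array, and the probe set fell by 0.30 (SE 0.11, adjusted p = 0.018, with 35.1% of probe sets falling).

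Tcf7l2, the factor most studied in liver, gave different answers by probe set and by whether carcinoma 3 was counted. On its brightest probe set, 1429428_at, untreated arrays read 7.31, 7.35, 7.21, 7.46 and 7.07 (7.28 ± 0.15). Carcinomas read 7.69, 7.37, 5.52, 7.67 and 7.70 (7.19 ± 0.94). Carcinoma 3 lay more than 1 log2 unit below the rest, carcinomas 1, 4 and 5 lay above every untreated array, and carcinoma 2 lay within them. Over all 5 the difference was -0.09 (SE 0.28, adjusted p = 0.78), and without carcinoma 3 it was 0.33 (adjusted p = 0.0072), a rise. 1429427_s_at also read lowest in carcinoma 3, with carcinomas at 7.01, 6.31, 4.84, 7.15 and 6.59 against 6.91, 6.53, 6.74, 6.79 and 6.53 in untreated liver. Its difference was -0.32 (SE 0.28, adjusted p = 0.32).

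The dimmer Tcf7l2 probe sets fell in carcinomas, where 35.1% of probe sets fell. In carcinomas 1425229_a_at lay at the 41.8 to 54.1 percentile of all probe sets and 1426639_a_at at the 18.5 to 27.8 percentile. Neither is shown to stand above background there, so the sizes of their falls cannot be read exactly. On 1425229_a_at untreated arrays read 5.93, 6.08, 5.91, 6.11 and 6.21 and carcinomas 5.91, 5.61, 5.11, 5.78 and 5.56, the groups meeting at 5.91 without overlap (-0.45, SE 0.13, adjusted p = 0.0051). On 1426639_a_at untreated arrays read 4.70, 4.86, 4.45, 4.31 and 4.76 and carcinomas 4.01, 3.97, 4.31, 3.99 and 4.34, and the groups overlapped between 4.31 and 4.34 (-0.49, SE 0.13, adjusted p = 0.0025). Without carcinoma 3 these were -0.33 (adjusted p = 0.017) and -0.54 (adjusted p = 0.002), so without that array probe sets of the gene passed the test in opposite directions. Tcf7l2 is known to be spliced into many forms, and which of them each probe set reads was not looked up.

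In adenomas Tcf7l2 read lower on 1429428_at without passing the test. Phenobarbital liver read 7.30, 7.31, 7.44, 7.60 and 7.59 (7.45 ± 0.15) and adenomas 7.00, 7.02, 6.94, 6.98 and 6.88 (6.96 ± 0.057). Every adenoma lay below every phenobarbital array, and the difference was -0.48 (SE 0.28, adjusted p = 0.24, 95% interval from -1.08 to 0.11). The SE pools the spread of all 4 groups, carcinoma 3 included. With only these 2 groups in the fit the difference passed the test (adjusted p = 0.0026), as it did without carcinoma 3 (adjusted p = 0.00075). On 1429427_s_at phenobarbital liver read 6.68, 6.69, 6.66, 7.17 and 6.93 and adenomas 6.12, 6.13, 6.28, 6.05 and 5.96, without overlap (-0.72, SE 0.28, adjusted p = 0.079, and 0.0011 without carcinoma 3). The dimmer probe sets differed by -0.29 (1425229_a_at, adjusted p = 0.13) and -0.07 (1426639_a_at, adjusted p = 0.75).

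Phenobarbital alone moved no measured TCF/LEF factor past the test. The differences between phenobarbital and untreated liver were -0.18 for Lef1 (95% interval -0.50 to 0.15), -0.06 for Tcf7l1 (-0.40 to 0.28) and 0.17 for Tcf7l2 (-0.43 to 0.76), each with an adjusted p of 1 and overlapping groups. These intervals pool the spread of carcinoma 3. Without it the SE on 1429428_at was 0.094 and the difference still did not pass (limma, adjusted p = 0.84). Some dimmer probe sets had the other sign, also without passing: 1421299_a_at (0.06), 1436207_at (0.12) and 1426639_a_at (-0.05). Of all genes, 39 (0.214%) passed the test in that comparison.

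**Figure D2:**
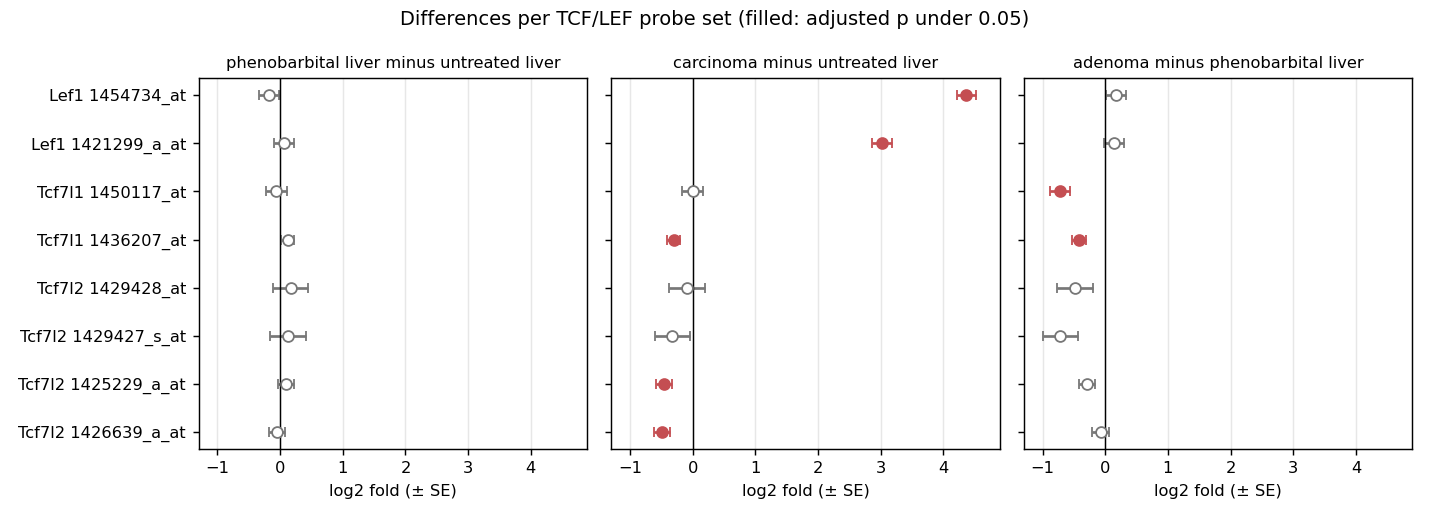
Log2 differences of the 8 TCF/LEF probe sets (points, with whiskers for the SE) in the phenobarbital, carcinoma and adenoma comparisons, filled where the adjusted p is under 0.05. Both Lef1 probe sets lie at 4.37 and 3.02 in carcinomas, both Tcf7l1 probe sets lie below 0 in adenomas, and no point is filled under phenobarbital.

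The tumour groups were also set against each other. Lef1 was lower in adenomas than in carcinomas by 4.37 on the log2 scale (SE 0.16, adjusted p = 1.1e-14), and Tcf7l1 differed by -0.78 (SE 0.16, adjusted p = 0.00035), where 28.5% of genes were lower and 33.6% higher in adenomas. The Tcf7l1 value rests on 1450117_at: on 1436207_at the same difference was 0.01 (adjusted p = 0.97), with 28% of probe sets lower and 30.6% higher. Tcf7l2 differed by -0.23 (SE 0.28, adjusted p = 0.5), and without carcinoma 3 by -0.64 (adjusted p = 1.5e-05).

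When each tumour was first set against its own liver, the effects differed between the tumours for Lef1 and Tcf7l1. The adenoma effect minus the carcinoma effect was -4.19 for Lef1 (SE 0.22, adjusted p = 1.3e-11) and -0.72 for Tcf7l1 (SE 0.23, adjusted p = 0.014), in a comparison in which 46.6% of genes passed in either direction. For Tcf7l1 this too was the reading of 1450117_at, while 1436207_at gave -0.12 (adjusted p = 0.56). For Tcf7l2 it was -0.39 (SE 0.40, adjusted p = 0.44), and -0.81 (adjusted p = 6.2e-05) without carcinoma 3.

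Whether the factors changed unequally was tested on differences taken within each array, for 3 pairs in 3 comparisons (9 exact two-sided permutation tests, adjusted over the 9). From untreated liver to carcinoma, Tcf7l1 minus Lef1 shifted by -4.37 and Tcf7l2 minus Lef1 by -4.46 (p = 0.0079 and adjusted p = 0.036 for both, exact permutation; 0.0079 is the smallest p that 5 against 5 arrays allow). With 1 array left out, both calls were lost in 9 of 10 cases (adjusted p = 0.071, exact permutation), where fewer arrays raise the smallest p that can be reached, and the shifts stayed between -4.61 and -4.02. From phenobarbital liver to adenoma the same pairs shifted by -0.90 and -0.66 (exact permutation p = 0.024 and 0.032, adjusted p = 0.071 for both), which missed the threshold; without adenoma 2 both passed (-1.10 and -0.84, exact permutation, adjusted p = 0.036). Tcf7l1 minus Tcf7l2 shifted by 0.09 in carcinomas and -0.24 in adenomas (exact permutation, adjusted p = 0.89 and 0.13). Under phenobarbital Tcf7l1 minus Tcf7l2 shifted by -0.23, Tcf7l2 minus Lef1 by 0.35 and Tcf7l1 minus Lef1 by 0.12 (exact permutation, adjusted p = 0.083, 0.083 and 0.4), none past the threshold.

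The genes whose pattern over the 20 arrays lay closest to Lef1, by the root mean square difference after centring each gene on its own mean, were Epdr1 (0.300), Tcf12 (0.308), Tspan3 (0.311), Cpt1c (0.317) and Bex3 (0.327). Tcf12, an E protein of the basic helix-loop-helix class that is no TCF/LEF factor despite its name, averaged 9.20 in untreated liver, 9.12 in phenobarbital liver, 13.48 in carcinomas and 9.14 in adenomas. Closest to Tcf7l1 were Lrpap1 (0.218), Tmem63a (0.218), Stimate (0.232), Izumo4 (0.246) and Bbs10 (0.252). Lrpap1, a chaperone of lipoprotein receptors, averaged 10.06, 10.10, 10.11 and 9.26 in the same order, low in adenomas alone. Such closeness describes these arrays, all of which share the 4 groups.

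Among partners that TCF/LEF factors need for activation, 15 of 17 measured co-activators rose in carcinomas and 1 fell (median 1.07, against -0.12 over all genes, of which 31.4% rose and 37.6% fell). Ctnnb1, beta-catenin itself, rose by 1.89 (SE 0.11, adjusted p = 2e-11) and Bcl9, which links beta-catenin to Pygopus proteins, by 1.43 (SE 0.18, adjusted p = 6.9e-07), while its paralogue Bcl9l fell by 0.57 (SE 0.12, adjusted p = 0.00036). In adenomas 2 rose and 0 fell (median 0.16, against -0.03 over all genes, of which 13.4% rose and 11.2% fell), a share near that of all genes. These were the acetyltransferases Ep300 (0.70, SE 0.12, adjusted p = 0.00021) and Crebbp (0.61, SE 0.12, adjusted p = 0.00071).

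Of 10 measured co-repressors, 8 rose in carcinomas and 1 fell (median 1.57), where 31.4% of all genes rose and 37.6% fell. The rises included Ctbp2 (2.38, SE 0.19), the deacetylase Hdac2 (2.20, SE 0.16) and Tle1 (2.11, SE 0.18), and Tle5, a short family member that lacks the repressing domains, fell by 0.66 (SE 0.14, adjusted p = 0.00034). In adenomas Ctbp1 rose by 0.55 and Tle5 fell by 0.74 (SE 0.14, adjusted p = 0.00061), and the other 8 did not pass, shares near the 13.4% and 11.2% of all genes. Of 12 inhibitors of TCF/LEF or beta-catenin, 5 rose and 3 fell in carcinomas, not far from the 31.4% and 37.6% of all genes, and 3 rose and 2 fell in adenomas (13.4% and 11.2% of all genes). Nlk, a kinase that phosphorylates TCF/LEF factors, rose in both (2.15, SE 0.21, and 0.88, SE 0.21), and Ctnnbip1, which blocks beta-catenin from binding them, fell in both (by 0.50, SE 0.15, and by 0.93, SE 0.15).

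The Sox genes, which carry a related HMG box, went both ways: 4 of 13 rose and 6 fell in carcinomas, and 1 rose and 3 fell in adenomas, against 31.4% and 37.6% of all genes in carcinomas and 13.4% and 11.2% in adenomas. Those counts lie near these shares and are no result about the Sox genes as a group. Sox4 rose in both tumours (5.21, SE 0.33, and 2.03, SE 0.33), and Sox2 rose by 6.84 (SE 0.46, adjusted p = 1e-10) in carcinomas. Of 18 measured Wnt target genes, 15 rose and 1 fell in carcinomas (median 3.45) and 12 rose and 0 fell in adenomas (median 1.34), where all genes gave 31.4% and 37.6%, and 13.4% and 11.2%. Nkd1, a feedback inhibitor of the pathway, rose by 7.39 (SE 0.39) and 3.04 (SE 0.39), and Axin2, a scaffold of the destruction complex, by 4.93 (SE 0.25) and 2.39 (SE 0.25). Against the same shares, the 13 pericentral genes split between the tumours, with 4 rising and 9 falling in carcinomas and 7 rising and 0 falling in adenomas, where the glutamate transporter gene Slc1a2 rose by 3.20 (SE 0.44, adjusted p = 2.5e-05). Axin2, Lgr5 and Tbx3 stand in both the Wnt target and the pericentral list. Sox7 and Sox17, which fell in carcinomas, are counted in both the Sox and the inhibitor list. On the adenoma arrays 12 Wnt target genes rose, while Tcf7l1 fell and Lef1 and Tcf7l2 did not pass in the main fit. Any link between the targets and the factors was not tested. Under phenobarbital 1 gene of all these lists passed, the ammonium transporter gene Rhbg (1.28, SE 0.22, adjusted p = 0.012), and without untreated arrays 3 and 4 it did not pass while 1 Sox gene did.

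**Figure D3:**
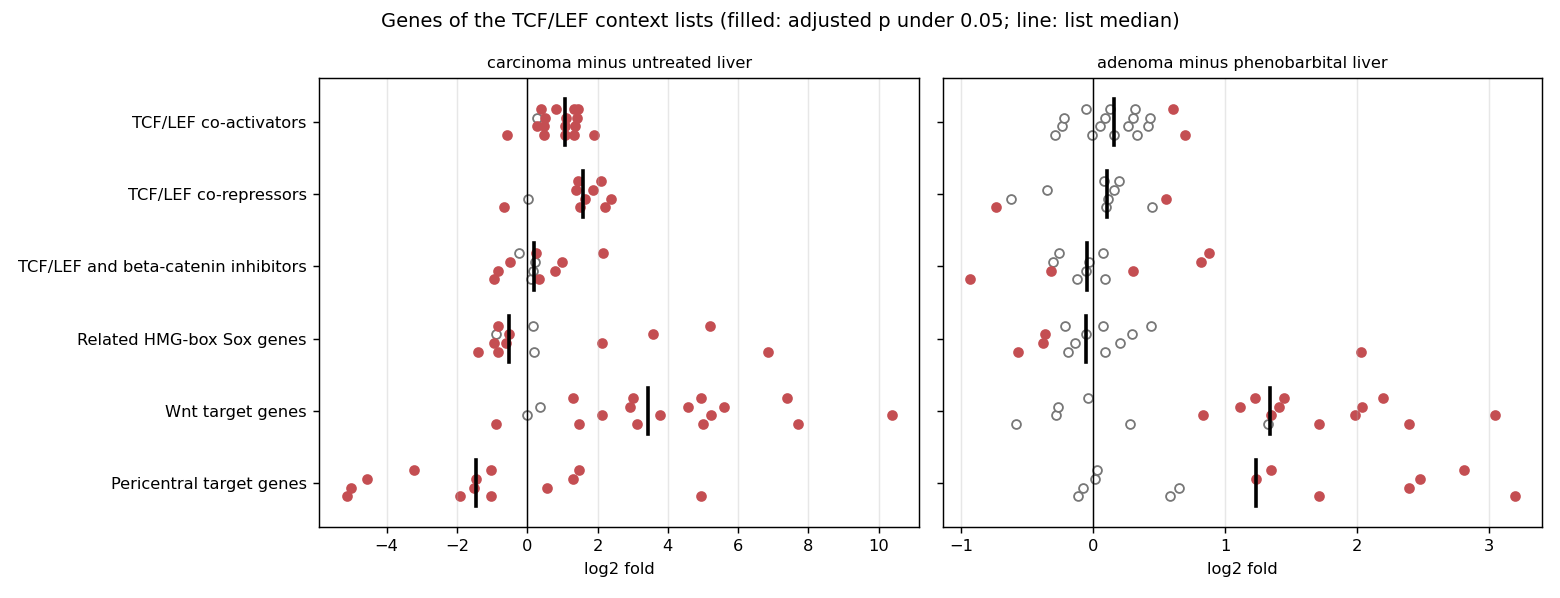
Log2 differences of the genes in 6 lists around the TCF/LEF factors, in carcinomas (left) and adenomas (right, on a narrower axis), with filled points for an adjusted p under 0.05 and a black line for the list's median. Wnt targets lie to the right in both tumours (medians 3.45 and 1.34), and the pericentral list lies left in carcinomas (-1.45) and right in adenomas (1.24).

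Because Lef1 is abundant in T cells, markers of other cells are given beside it; in bulk tissue a change in the number of cells of a type and a change in RNA per cell cannot be told apart. The 18 measured T cell markers averaged 5.33 to 5.57 on untreated arrays, 5.28 to 5.42 on phenobarbital arrays, 5.52 to 5.97 in carcinomas and 5.10 to 5.62 in adenomas. In carcinomas 5 rose and 3 fell (median -0.08), where 31.4% of all genes rose and 37.6% fell. Thy1, which stromal and neural cells also make, rose by 3.30 (SE 0.39) and Bcl11b by 2.38 (SE 0.47). The CD3 genes, parts of the T cell receptor complex, went both ways: Cd3g rose by 0.93 (SE 0.24, adjusted p = 0.0017) and Cd3d by 0.64 (SE 0.21, adjusted p = 0.012), while Cd3e fell by 0.52 (SE 0.10, adjusted p = 8.5e-05). Cd3d was named after its value was seen. The 10 stellate cell and fibroblast markers averaged 10.05 to 11.28 in carcinomas against 7.89 to 8.86 in untreated liver (7 rose, 1 fell). The 5 cholangiocyte markers averaged 5.97 to 7.41 against 4.81 to 5.61 (2 rose, 1 fell). Among them Krt7 (5.23) and Epcam (2.08) rose, Cftr fell (-0.39), and Krt19 and Sox9 did not pass. Endothelial markers read lower in carcinomas, 5.17 to 6.00 against 7.78 to 8.27, with 6 of 8 falling. The B cell markers fell (6 of 6), of 8 NK cell markers 1 rose and 2 fell, and of 10 macrophage markers 2 rose and 5 fell. The cholangiocyte, NK cell, and macrophage and Kupffer cell counts do not stand clear of the 31.4% and 37.6% of all genes.

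In adenomas, where Tcf7l1 fell, 13.4% of all genes rose and 11.2% fell. There 0 of 18 T cell markers rose and 1 fell, and 4 of 10 stellate cell and fibroblast markers rose and 3 fell. Of 10 macrophage and Kupffer cell markers 1 rose (Cd68) and 4 fell (Clec4f, Vsig4, Marco and Timd4). Among 8 endothelial markers 2 rose and 1 fell. Of 10 hepatocyte markers 2 fell, Cps1 (-4.12, SE 0.93) and Cyp2f2 (-5.93, SE 0.47), and the other 8 did not pass. No marker of NK cells, B cells or cholangiocytes passed there. Their averages in adenomas are not shown to stand above background, so a small change could be missed. The part of these markers in the values of Lef1 and Tcf7l1 was not tested.

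**Figure D4:**
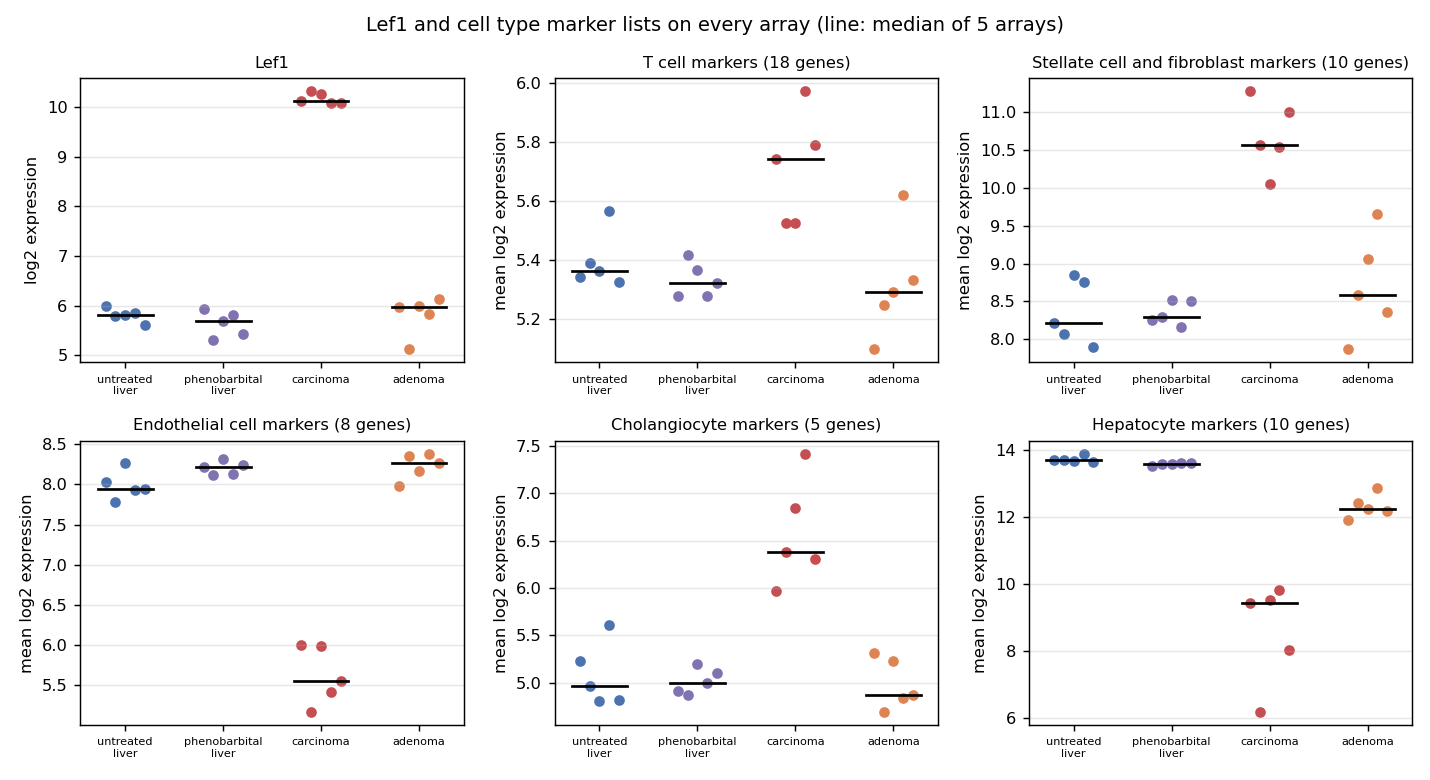
Lef1 (1454734_at, log2 expression) and the mean log2 expression of 5 cell type marker lists on every array, with points for arrays, a line for the median of 5 and a separate vertical scale in each panel. Carcinomas are high for Lef1 and for stellate cell and fibroblast markers and low for endothelial and hepatocyte markers, and their T cell marker means of 5.52 to 5.97 overlap the untreated range.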

How the data were processed

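RNA was extracted with Trizol from 20 samples in 4 groups of 5, named and numbered by the labels. The authors deposited log2 values made with RMA, per the submitters' processing notes (version not given in the sources used here); RMA makes the arrays' distributions alike and compresses folds of dim genes. Probe sets were named from the platform annotation: 34945 had a single symbol, 932 several and 9160 none. Each gene was read from its brightest probe set, leaving out sets ending in _x_at where another existed. limma 3.58.1 in R 4.3.3 fitted all 4 groups at once (16 residual and 3.22 prior degrees of freedom), with Benjamini-Hochberg adjustment over 18193 genes or 34945 probe sets, and was tested on simulated data. Exact permutation tests used scipy 1.17.1. Tcf7 had no usable probe set, so 9 pair tests stood in place of those planned for 4 members. Named genes were all member probe sets, up to 3 rising and 3 falling called genes a list and, for each called member, the 5 closest genes; the text gives a selection of these. The members and lists were chosen with earlier results of these data known. Alternatives changed the dim filter, probe set rule, eBayes settings, normalization, array weights, replicate block, groups fitted and arrays. With 5 arrays a group, precision is set by that number.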

Additional observations from a re-analysis of the deposited data

Results flagged for a closer look

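Tcf7l2 on 1429428_at read 5.52 in carcinoma 3, apart from the other 4 carcinomas by more of the group's range than Dixon's limit of 0.71 for 5 samples allows. It was the only such value among 32 combinations of probe set and group, and chance alone marks about 1 group in 20. The combinations share arrays and genes, so they are not independent. Carcinoma 3 was also the carcinoma furthest apart, and the lowest, on 1425229_a_at, 1429427_s_at, 1436207_at and 1450117_at. Its gaps there were 0.57, 0.64, 0.49 and 0.64 of the range, within the limit. On 1426639_a_at, 1421299_a_at and 1454734_at another carcinoma stood furthest apart.

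The effects of the tumours differed by a test of the difference itself for Lef1 (adenoma effect minus carcinoma effect -4.19, adjusted p = 1.3e-11 by limma) and for Tcf7l1 (-0.72, adjusted p = 0.014 by limma). The Lef1 difference was seen on both probe sets, and the Tcf7l1 difference on 1 of 2.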

How the results depend on the processing

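The Lef1 rise in carcinomas (4.31 to 4.41 leaving out 1 array) and the Tcf7l1 fall in adenomas (-0.81 to -0.64) kept direction and call under every alternative run. Values without a call changed sign: Tcf7l1 under phenobarbital (0.032 with the mean of probe sets; -0.10 to 0.0028 leaving out 1 array), Tcf7l1 in carcinomas (0.058 with array weights, 0.052 without untreated arrays 3 and 4; -0.093 to 0.18), Tcf7l2 in carcinomas (0.15 with array weights; -0.22 to 0.33) and Tcf7l2 in adenomas minus carcinomas (0.033 with the mean of probe sets; -0.64 to -0.10). Leaving out carcinoma 3, chosen after seeing the data for single probe sets, turned 1429428_at to 0.33, 1429427_s_at to 0.062 and 1450117_at to 0.18 in carcinomas and 1436207_at to -0.032 in adenomas minus carcinomas. Leaving out 1 array gave -0.52 to -0.45 for Tcf7l2 and 0.094 to 0.34 for Lef1 in adenomas, and -0.81 to -0.27 for the Tcf7l2 difference of tumour effects. Fitting only the groups compared gave Tcf7l2 in adenomas a call (-0.48), so 2 members in place of 1; leaving out 1 array gave 1 to 2 called members in either tumour.

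Pair shifts in adenomas passed with the mean of probe sets (Tcf7l1 minus Lef1 -0.73, Tcf7l2 minus Lef1 -0.55, exact permutation, adjusted p = 0.018) and without adenoma 2 (adjusted p = 0.036, exact permutation); under phenobarbital Tcf7l1 minus Tcf7l2 passed without untreated array 2 and Tcf7l2 minus Lef1 without phenobarbital array 1 (-0.27 and 0.46, exact permutation, adjusted p = 0.048). In carcinomas they were -4.33 and -4.43 (exact permutation, adjusted p = 0.08) without untreated arrays 3 and 4, an alternative added after seeing the data, where fewer arrays raise the smallest p; leaving out 1 array lost both calls in 9 of 10 cases (adjusted p = 0.071). Leaving out 1 array, Tcf7l1 minus Lef1 ran from -4.48 to -4.17 in carcinomas and -1.10 to -0.74 in adenomas, Tcf7l2 minus Lef1 from -4.61 to -4.02, -0.84 to -0.56 and, under phenobarbital, 0.26 to 0.46, and Tcf7l1 minus Tcf7l2 from -0.15 to 0.22 in carcinomas and -0.27 to -0.17 under phenobarbital.

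Samples with the same replicate number did not deviate together (correlations -0.11 to 0.07), and a replicate block changed no member's call (Lef1 in carcinomas 4.37, adjusted p = 1.4e-12 by limma). Centring arrays moved the median of all genes in carcinomas from -0.12 to -0.34. The 39 genes called under phenobarbital became 205 with array weights, 265 with only the groups compared, and 23 and 25 without phenobarbital arrays 3 and 2.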
